A study of Mus musculus with 2 samples.

Results

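Divergent promoters are stretches of DNA from which 2 protein-coding genes on opposite strands are read away from each other. Pairs were taken from the GENCODE mouse annotation on mm10 (release 21) where the outermost starts of a minus-strand gene and a plus-strand gene pointed away from each other and lay 1 to 1000 bp apart. This gave 754 pairs with 1487 of 21938 coding genes, or 6.78%. Each member is the interval between the 2 starts with 500 bp added on each side. The pairs fell into 733 separate loci, since 42 pairs shared a gene with another pair. The starts were close together, with a median distance of 130 bp. They lay at most 100 bp apart in 312 pairs, over 100 and up to 200 bp in 206, over 200 and up to 300 bp in 100, over 300 and up to 500 bp in 66 and over 500 bp in 70.

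In DNase-seq, nuclei are treated with the nuclease DNase I, which cuts accessible chromatin most, and the cut ends are sequenced. The tissue was cerebellum. The mice were B6CASTF1/J males, that is, offspring of a B6 by CAST cross, 8 to 10 months old, with no treatment named in the labels. There is 1 group of 2 libraries, biological replicates 1 and 2, each from a pool of 2 biosamples. The labels give both pools the same donor record and do not say whether animals were in common, so differences between the 2 libraries may reflect technique more than mice. No comparison between conditions was possible, and every comparison below sets regions beside other regions of the same library, with no test.

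When the starts of neighbouring genes lie back to back, the nucleosome-depleted region and the binding sites between them can serve both genes. Such promoters are known for high CpG content, a scarcity of TATA boxes and the factors NFY, ETS, NRF1 and SP/KLF, and for genes of DNA repair, mitochondria and other functions that most cells use. In this tissue granule cells are the most abundant cell type, so accessibility in whole cerebellum is weighted towards them.

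The sequences between the starts of 7 pairs show what such a promoter looks like at single-base scale. They were taken among the named pairs, as those with the most footprints between their starts and 30 to 300 bp between them. A footprint is a short stretch inside a cut region that was cut less than its surroundings, called by the authors in each library. Capitals mark bases inside footprints of both replicates. All are written 5′ to 3′ on the plus strand of the RefSeq GRCm38 (mm10) reference, so the minus-strand gene lies to the left and the plus-strand gene to the right. Each lies strictly between the outermost starts and no annotated gene overlaps it, so all 7 are intergenic in GENCODE. The mice also carry a CAST genome, and the alleles were not resolved. The stretches are chr5:33629636-33629924 for Fam53a/Gm9903, chrX:73786898-73787027 for Idh3g/Ssr4, chr11:53430832-53431022 for Uqcrq/Gdf9, chr5:120612590-120612738 for Rita1/Ddx54, chr7:28741821-28741991 for Mrps12/Sars2, chr1:74284739-74284929 for Aamp/Pnkd and chr17:48409907-48410013 for Nfya/Oard1.
Fam53a/Gm9903: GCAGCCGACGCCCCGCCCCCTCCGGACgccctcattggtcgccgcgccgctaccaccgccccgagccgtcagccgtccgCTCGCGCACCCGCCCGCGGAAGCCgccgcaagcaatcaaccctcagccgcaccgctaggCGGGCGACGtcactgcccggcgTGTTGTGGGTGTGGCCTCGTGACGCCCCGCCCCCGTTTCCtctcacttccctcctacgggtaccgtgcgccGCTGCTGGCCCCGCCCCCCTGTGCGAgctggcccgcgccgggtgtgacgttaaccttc
Idh3g/Ssr4: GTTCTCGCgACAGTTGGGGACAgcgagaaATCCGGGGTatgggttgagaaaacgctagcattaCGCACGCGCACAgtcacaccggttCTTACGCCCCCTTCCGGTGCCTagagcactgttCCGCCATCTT
Uqcrq/Gdf9: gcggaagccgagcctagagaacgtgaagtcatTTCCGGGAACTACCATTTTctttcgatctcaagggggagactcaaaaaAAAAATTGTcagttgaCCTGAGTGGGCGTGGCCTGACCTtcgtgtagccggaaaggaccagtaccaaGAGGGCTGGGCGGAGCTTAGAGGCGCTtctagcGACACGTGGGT
Rita1/Ddx54: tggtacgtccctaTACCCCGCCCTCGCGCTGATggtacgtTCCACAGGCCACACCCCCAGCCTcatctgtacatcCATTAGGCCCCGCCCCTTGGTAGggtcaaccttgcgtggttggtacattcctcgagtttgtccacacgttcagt
Mrps12/Sars2: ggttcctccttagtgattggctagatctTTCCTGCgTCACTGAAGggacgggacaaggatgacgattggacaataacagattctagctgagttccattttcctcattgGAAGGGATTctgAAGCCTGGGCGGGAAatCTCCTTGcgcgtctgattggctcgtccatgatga
Aamp/Pnkd: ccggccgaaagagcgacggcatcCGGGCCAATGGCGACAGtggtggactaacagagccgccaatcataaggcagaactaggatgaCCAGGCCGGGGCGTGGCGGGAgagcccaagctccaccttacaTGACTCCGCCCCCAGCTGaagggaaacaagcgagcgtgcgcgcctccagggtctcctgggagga
Nfya/Oard1: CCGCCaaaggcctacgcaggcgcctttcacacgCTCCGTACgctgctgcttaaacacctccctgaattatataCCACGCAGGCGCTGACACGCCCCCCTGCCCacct

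In Fam53a/Gm9903 the SP/KLF word CCCCGCCC occurred 3 times, each time whole inside footprints of both replicates, while a reversed NFY word (TCATTGG) had no base in a footprint. In Idh3g/Ssr4, a pair of the X chromosome that codes for a subunit of mitochondrial isocitrate dehydrogenase and a subunit of the translocon-associated protein complex, the ETS word CTTCCGG and the YY1 word CGCCATCTT stood whole inside footprints of both replicates. The 4 NFY matches of Mrps12/Sars2 had at most 2 of their 7 bases in a footprint. Aamp/Pnkd held 2 NFY matches, of which CCAATGG lay whole inside footprints of both replicates and CCAATCA had no base in one. In Uqcrq/Gdf9 the E-box CACGTG at the right-hand end lay inside footprints of both replicates. Nfya/Oard1 held none of the 14 motifs searched, yet 43 of 107 bases lay in footprints of both replicates. A match of letters is a description and does not show that a factor was bound.

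A peak of the authors' stricter list overlapped 705 members in replicate 1, or 93.5% (95% Wilson interval 91.5 to 95), and 702 in replicate 2, or 93.1% (91.1 to 94.7). These intervals cover counting error only. Of all coding starts in the annotation, 52.3% in replicate 1 and 50.8% in replicate 2 had a peak within 500 bp. The replicates called nearly the same members open. Both had a peak in 699 (92.7%), replicate 1 alone in 6, replicate 2 alone in 3, and neither in 46 (6.10%, 4.60 to 8.04). In equal windows of 500 bp on each side of a start, 92.6% and 92.3% of member starts had a peak, beside 49.3% and 47.8% of the 20451 other coding starts. The difference was 43.9 ± 0.913 percentage points (mean and SD, n = 2 libraries).

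Member starts were also richer in CpG, the dinucleotide of CpG islands. The CpG ratio is the number of CpG in the window over the number expected from its C and G content, and it was 0.6 or more at 84.1% of member starts and at 43.2% of other starts. Among these CpG-rich starts alone, 98.0% of 1250 member starts had a peak in each replicate, beside 87.5% and 84.8% of 8833 others, so the difference narrowed to 11.8 ± 1.89 points (n = 2). With peaks at or above the median signal of the list it was 17.7 points. The 74 member starts with a ratio under 0.4 had a peak in 16.2%, beside 7.94% ± 0.252 of 8711 others (n = 2). With a ratio of 0.4 to 0.6, 84.7% ± 1.74 of 163 member starts and 56.0% ± 2.77 of 2907 others had one. Member starts were above the others in each of the 4 CpG classes, and the spread of both sets over the CpG classes was wider than the gap between members and others within any class. How much of the whole difference goes with CpG content was not tested beyond these classes.

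**Figure D1:**
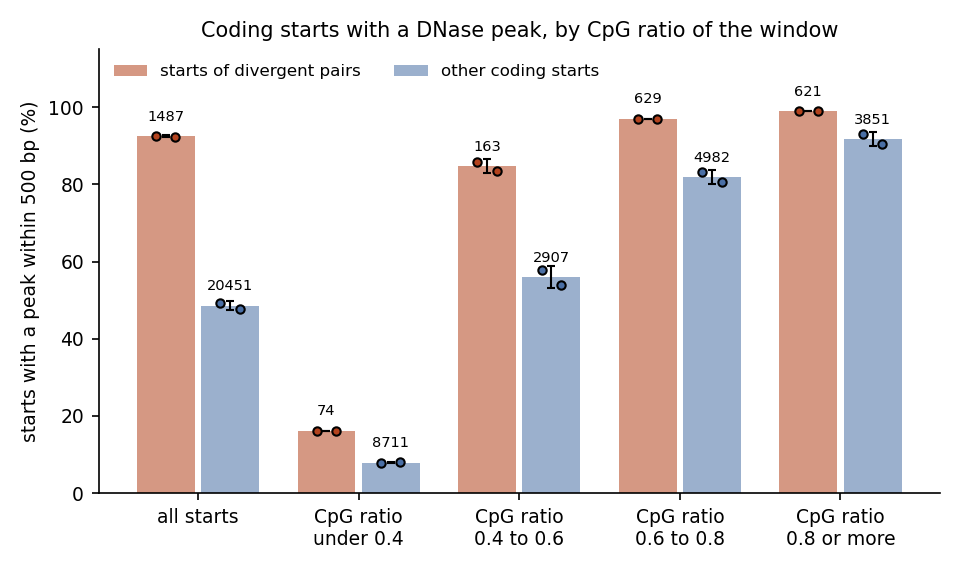
Coding starts with a peak of the stricter list within 500 bp (%), for all starts and by CpG ratio of the window. Bars are the mean of 2 replicates with their SD, points are the replicates, and the number over each bar is the number of starts. Starts of divergent pairs lie above other coding starts in every class, by 43.9 points over all starts and by 7.29 points where the ratio is 0.8 or more.

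Near the limit of 1000 bp the shares of a few starts can be set side by side. Of the 22 member starts over 900 bp from their partner, 77.3% and 81.8% had a peak, and of the 24 starts up to 100 bp past the limit, 66.7% had one in each replicate. Among the 207 starts over 1000 and up to 2000 bp from a partner the share was 53.6% and 54.6%. Within the members, 95.7% ± 0.115 of starts at most 100 bp from their partner and 75% ± 1.01 of those over 500 bp from it had a peak (n = 2). CpG content changed along with distance. The CpG ratio was 0.6 or more at 89.0% of the former starts and at 54.3% of the latter. It was so at 38.2% of starts over 1000 and up to 2000 bp from a partner. The parts of distance and CpG content were not tested. Pairs whose 5′ ends overlap, and which the rule leaves out, stood between members and other starts, with 87.9% and 86.4% of 895 starts. Another 876 starts outside the members had an annotated opposite-strand start of any kind within 1000 bp upstream, and 77.5% and 76.0% of them had a peak.

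Peaks at members were stronger than most. The signal is the authors' value for each peak, in a unit that is comparable within a library only, and a window takes that of its strongest peak. Over open members it ran from 0.314 to 25.7 in replicate 1, with a median of 7.19 and quartiles of 4.59 and 9.94, and from 0.335 to 18 in replicate 2, with a median of 5.11 and quartiles of 3.28 and 7.78. The median of all peaks in the stricter list was 1.40 and 0.961, and 91.1% and 91.2% of members had a signal above it. Among starts with a peak, the median was 7.12 at member starts and 4.47 at others in replicate 1, and 5.08 and 3.12 in replicate 2, a ratio of 1.61 ± 0.0247 (n = 2). Among CpG-rich starts with a peak, this ratio was lower, at 1.41 ± 0.0250 (n = 2). Peak signals under 1, the only ones checked, were whole multiples of 1 step within each library, to within 0.05 of a step. The signal of the median open member amounted to 1008 and 809 such steps. Were each step 1 cut, counting alone gives a single peak of that signal an error of 3.15% in replicate 1 and 3.52% in replicate 2. Over whole intervals, whose length grows with the gap, the median signal was 6.20 and 4.19 where the starts lay at most 100 bp apart, 8.07 and 6.52 at over 200 to 300 bp, 8.48 and 6.42 at over 300 to 500 bp and 7.06 and 5.13 at over 500 bp. In windows of equal length around each start it was 6.20 and 4.19 at most 100 bp from the partner and 5.74 and 4.4 over 500 bp from it, so the replicates differed in which of these was lower. The 20 members on the X chromosome had a median of 3.92 and 3.39, beside 7.23 and 5.15 on autosomes. The median CpG ratio also differed, at 0.602 for the members on X and 0.777 for those on autosomes. The males carry a single X, so chromosome and copy number cannot be told apart, and the part of CpG content was not tested.

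The pairs named next were chosen by the mean of their signal over the libraries, in which replicate 1 weighs more because its values are larger. Hjurp/Trpm8 had the highest signal of replicate 1, at 25.7, and 16.6 in replicate 2. Hjurp codes for the chaperone that loads the centromeric histone CENP-A, and Trpm8 for a cold-sensing ion channel. Rita1/Ddx54 had the highest of replicate 2, at 18, and 22.3 in replicate 1, a tubulin-associated regulator of Notch signalling beside an RNA helicase. Uqcrq/Gdf9, a respiratory complex III subunit beside a growth factor of the oocyte, had 20.4 and 17.3. Trpm8 and Gdf9 are best known from sensory neurons and the ovary, so an open member does not show that both genes are expressed in cerebellum. Aamp/Pnkd had 16.6 and 16.2, Tom1l2/Drc3 15.5 and 17.3, and Nfya/Oard1 18.2 and 12.9. Nfya codes for the subunit of NFY that reads the CCAAT box, and Oard1 for an enzyme that removes ADP-ribose from proteins. Pdcd10/Serpini1, where a regulator of vessel integrity faces neuroserpin, a protease inhibitor of neurons, had 16.8 and 14.3. Zfp654/Cggbp1 had 15.8 and 14.9, and Fam53a/Gm9903 18.9 and 11.6. All of these 9 pairs were open in both replicates. The strongest peak of a member need not cover its starts. In Rita1/Ddx54, with starts 150 bp apart, it was 300 bp wide in both replicates. It was centred 306 bp from the middle of the gap on the plus side and touched neither start, while another peak covered both. In Uqcrq/Gdf9 a peak lay over the start of Gdf9 alone.

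The replicates ranked the members alike. Over the 699 members open in both, Spearman's rho of signal was 0.931, a description over regions that share each library. The log2 ratio of replicate 1 to replicate 2 had a median of 0.50, and 14 members lay more than 2-fold from that median, all of them towards replicate 2. Of these 14, 8 were histone pairs of the Hist1 cluster on chromosome 13. All 9 Hist1 pairs open in both replicates were higher in replicate 2, against 44 of the other 690, with a median log2 ratio of −0.88 beside 0.51. Hist1h2ak/Hist1h2bn had 1.21 in replicate 1 and 3.69 in replicate 2, and Hist1h2ac/Hist1h2bc 2.01 and 5.12. The unique share of 32-mers, stretches of 32 bases that occur once in the reference, was 40.1 to 82.6% in these 9 pairs. The 5 other open members under 55% were all higher in replicate 1, among them Mfsd8/Abhd18 with 10.9 and 9.27. H2-T22/Gm6034, which is no histone pair, had a unique share of 64.5%. It was one of the 14 and higher in replicate 2, with 1.09 and 2.31. The part of repeated sequence in the histone difference was not tested.

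The share of genes that stood in pairs differed widely between gene classes, beside 6.78% of all coding genes. The classes were set by symbol with earlier results of these data known, and membership in a pair is a property of the annotation. In DNA repair, 21 of 67 genes (31.3%) stood in 23 pairs, and 22 of these pairs were open in both replicates, beside 92.7% of all members. Of the repair genes outside pairs, 89.1% had a peak in each replicate. Mcm4/Prkdc, a helicase subunit of replication beside the kinase of end joining, had 13.8 and 10.7. Atm/Npat, the kinase that senses double-strand breaks beside an activator of histone genes, had 12.6 and 10.4. Brca1/Nbr1, with a gene of homologous recombination and a receptor of selective autophagy, had 9.79 and 10.2. The pair without a peak was Pinlyp/Xrcc1. There the outermost annotated start of Xrcc1, the scaffold of single-strand break repair, had none. Another annotated start of the gene had a peak of 13.4 and 10.6 within 500 bp.

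Mitochondrial functions were frequent. Of 78 mitochondrial ribosomal genes 18 (23.1%) were in pairs, and of 46 complex I genes and assembly factors 13 (28.3%), and all of these pairs had a peak in both replicates. Mrps18b/Ppp1r10 had 12.9 and 11.1, Tepsin/Ndufaf8 14.1 and 10.1, and Wdr4/Ndufv3 12.6 and 10.4. In Mrps18b/Ppp1r10 the strongest peak touched neither start, being centred 409 and 309 bp from the middle of the gap on the plus side. Of 17 mitochondrial tRNA synthetases 3 were in pairs, including Mrps12/Sars2 with 7.72 and 8.03, in which a ribosomal protein and the seryl-tRNA synthetase of the same organelle stand back to back. In the proteasome 8 of 50 genes (16.0%) were in pairs, Ftsj3/Psmc5 with 10.8 and 7.16 and Mrpl32/Psma2 with 8.80 and 8.83 having the highest signal. Chaperones gave 12 of 78 genes (15.4%) in 11 pairs, with Tecr/Dnajb1 at 15.9 and 12.1 and Dnajb4/Fubp1 at 15 and 10.3. Of 83 cytosolic ribosomal genes 8 (9.64%) were in pairs. Med22/Rpl7a had 16.2 and 9.75 and Rpl9/Lias 11.7 and 8.57. Rnf151/Rps2 had no peak, although another start of Rps2 had one of 10.5 and 7.5 within 500 bp. Members of these classes outside pairs were mostly open too, against 49.3% and 47.8% of all unpaired coding starts. In each replicate, a peak lay at 93.3% of unpaired mitochondrial ribosomal genes, 93.9% of complex I and 78.6% of proteasome genes. It was 92.9% for mitochondrial tRNA synthetases. The shares were 78.8% and 77.3% for unpaired chaperones and 94.7% and 93.3% for unpaired cytosolic ribosomal genes, of whose 8 pairs 7 were open. Of all members, 92.7% were open in both replicates.

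Replication-dependent histones were the class most often in pairs, with 27 of 67 genes (40.3%) in 14 pairs, of which 13 joined 2 histone genes. Their signal was low for members. The pair with the highest mean, Hist1h2an/Hist1h2bp, had 3.5 and 6.95, and Hist1h2ag/Hist1h2bj had 3.64 and 6.69. Of the 14, 3 had no peak, as described below. Zinc finger genes named Zfp gave 20 of 394 (5.08%), none of 1135 olfactory receptors was in a pair, and none of the 5 Zic genes, regulators of granule cells, was in a pair by this rule. The textbook collagen pair Col4a4/Col4a3, which codes for chains of basement membrane collagen IV, was open but weak, with 0.757 in replicate 1 and 0.544 in replicate 2 and a CpG ratio of 0.456. Polk/Col4a3bp had 7.23 and 5.63. Its symbol matched the collagen rule, but Col4a3bp codes for a ceramide transporter and not for a collagen. Another textbook pair, Idh3g/Ssr4, had 5.21 and 4.96.

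The tissue label was checked against cell type markers at their outermost starts. All 10 granule cell markers had a peak in both replicates. In replicates 1 and 2, peaks lay at 7 and 6 of 10 for Purkinje cells and 2 and 1 for oligodendrocytes. The counts were 1 and 0 for microglia, 0 and 1 for vessels and 0 of 10 for other organs. Of all coding starts, 52.3% and 50.8% had a peak, so the Purkinje counts were not far from that share. The CpG content of the marker starts was not compared. In bulk tissue, few cells of a type and little accessibility in each of them cannot be told apart. A few markers are themselves members. Cbln3/Khnyn, with a cerebellin of granule cells, had a signal of 12.2 in replicate 1 and 9.99 in replicate 2. Aspa, of oligodendrocytes, stands in Aspa/Spata22 and in Aspa/Gm49340, Pecam1, of endothelial cells, in Pecam1/Milr1, and Ckm, the muscle creatine kinase, in Klc3/Ckm, and all 4 pairs lacked a peak in both replicates.

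Most members shared 1 peak, and whether they did went with the distance between the starts. Among open members, 1 peak overlapped both starts in 434 of 705 (61.6%) in replicate 1 and 433 of 702 (61.7%) in replicate 2. A separate peak lay over each start in 57 (8.09%) and 47 (6.70%), a peak lay over 1 start alone in 168 (23.8%) and 173 (24.6%), and no peak touched either start in 46 and 49. The share with 1 peak over both starts was 92.0% and 88.3% where the starts lay at most 100 bp apart, and 1.69% and 1.75% where they lay over 500 bp apart. Separate peaks rose from 0 to 40.7% and 43.9% over the same classes. The strongest peak had a median width of 260 bp in both replicates, wider than most gaps. When the shared peak had to reach at least 50 bp past both starts, the share was 38.7% (mean of 2). In 23 and 30 members 2 peaks of the same list overlapped each other, which such counts treat as separate peaks.

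**Figure D2:**
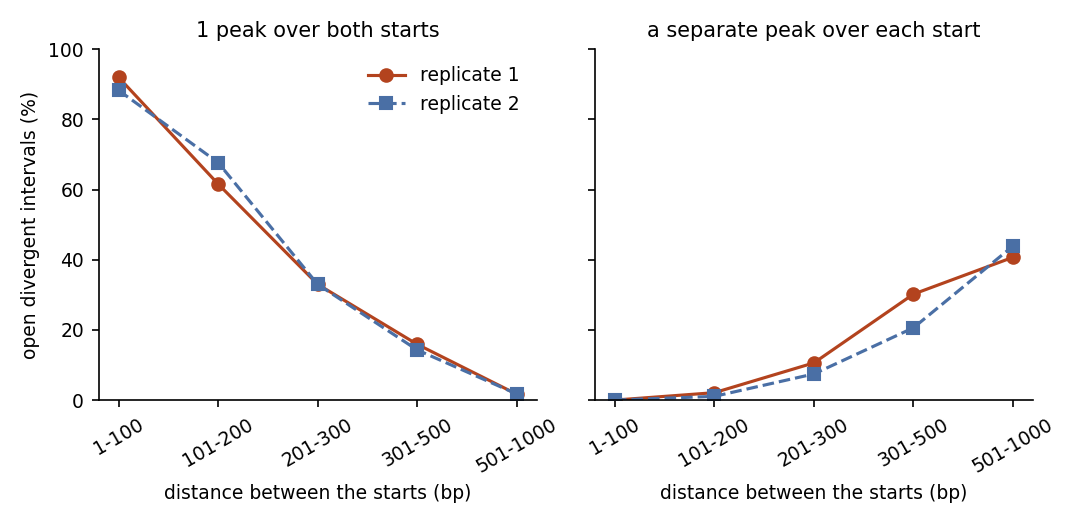
Share of open divergent intervals (%) in which 1 peak overlapped both starts (left) and in which each start had a separate peak (right), by distance between the starts in bp. Each line is 1 replicate. The shared peak gives way to separate peaks as the distance grows, from 92.0% to 1.69% and from 0 to 40.7% in replicate 1.

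The finer record of cutting gave a more continuous picture than the peaks. The authors listed every position whose local cut rate had a false discovery rate under 0.05. Among the 699 members open in both replicates, both starts were listed in 97% in each replicate, and the median member had 100% of the bases between its starts listed. Even with starts over 500 bp apart, 82.5% and 77.2% of members had both starts listed. Around member starts, the share of starts with a listed base stayed above 50% of its highest value from −700 to 539 bp in replicate 1 and from −800 to 619 bp in replicate 2, where negative is upstream. Around other coding starts it did so from −380 to 739 bp and from −500 to 799 bp. Enriched cutting at members thus reached further upstream, where the partner gene lies, and less far downstream.

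**Figure D3:**
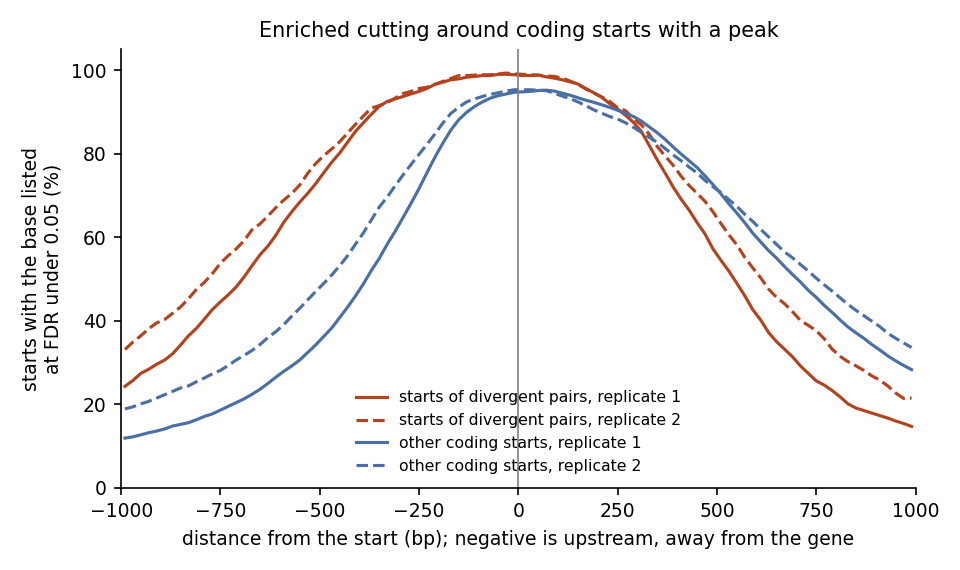
Share of starts with a peak (%) at which the base is listed at a false discovery rate under 0.05, by distance from the start in bp, negative being upstream. Solid and dashed lines are replicates 1 and 2. The curve of divergent pairs is shifted upstream of that of other coding starts in both replicates.

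The strongest peak was centred between them in 429 of 705 open members (60.9%) in replicate 1 and in 442 of 702 (63.0%) in replicate 2, with the rest spread about equally over the sides of the plus gene (18.7% and 18.1%) and the minus gene (20.4% and 18.9%). This share went with the gap, which also sets how much room lies between the starts. It was 45.2% and 45.5% of 299 open members with starts at most 100 bp apart, 78.7% and 84% at over 200 to 300 bp and 69.5% and 71.9% at over 500 bp. Its centre was a median of 41.5 and 39.5 bp from the middle of the gap. Seen from a start, the peak centre lay a median of 55.5 bp upstream in replicate 1 and 56.5 bp in replicate 2 at members, and 13.5 and 25.5 bp upstream at other starts.

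Footprints were dense between the starts. Open member starts had 10.3 and 9.84 footprints per kb, beside 8.72 and 8.21 at other open starts, a ratio of 1.19 ± 0.0102 (n = 2). Among CpG-rich open starts this ratio was lower, at 1.12 in replicate 1 and 1.13 in replicate 2. Peaks at member starts were also stronger, and the part of signal in the ratio was not tested. A footprint lay between the starts in 670 of 705 open members (95%) and in 666 of 702 (94.9%). Footprint bases per kb were 312 and 318 between the starts and 113 and 102 in the outer flanks, a ratio of 2.94 ± 0.262 (n = 2). Peaks covered 67.9% and 69.6% of the bases between the starts and 26.2% and 24.9% of the flanks. With bases inside peaks alone, an alternative added after the values were seen, the densities were 403 and 398 against 268 and 258, a ratio of 1.52 ± 0.0229. Over all bases the ratio was 4.12 ± 0.298 with starts at most 100 bp apart and 1.78 ± 0.127 over 500 bp apart (n = 2). Members with a CpG ratio under 0.4, only 5 of them open in both replicates, did not share the excess. Their ratio was 0.717 and 1.27 over all bases and 0.731 and 0.929 inside peaks. Footprints between the starts were also shared by the replicates more often. Of those in replicate 1, 83.7% overlapped one of replicate 2, beside 64.2% in the flanks and 64.8% in windows of other open starts. In the other direction the shares were 81.3%, 71.3% and 70.6%. The windows of other starts span 500 bp on each side, and their stretch just upstream was not counted alone. Dense footprints also overlap more often by position alone, and that part was not computed. Whether the higher sharing is particular to pairs was thus not tested.

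A rise just upstream of the start is not particular to pairs. In the 50 bp upstream of the start, footprint bases per kb were 408 and 409 at members and 323 and 322 at other starts. At 251 to 300 bp upstream they were 157 and 149 at members and 74.5 and 76.3 at others. In the last 50 bp of the downstream 500 bp the order was the opposite, with 32.2 and 24.9 at members and 57.9 and 49.1 at others.

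**Figure D4:**
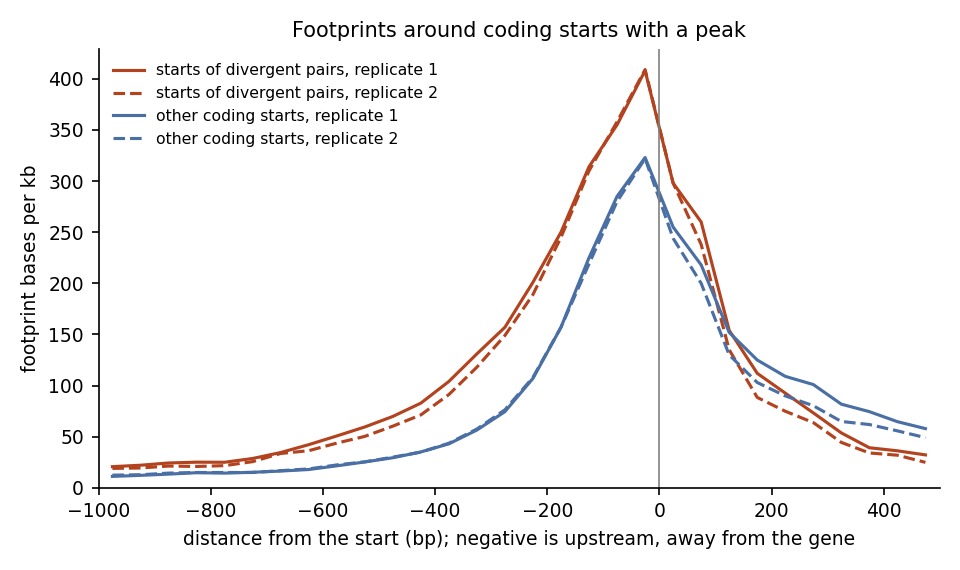
Footprint bases per kb in bins of 50 bp around starts with a peak, by distance from the start in bp, negative being upstream. Solid and dashed lines are replicates 1 and 2. Both sets are highest in the 50 bp upstream of the start, at 408 for divergent pairs and 323 for other coding starts in replicate 1, and divergent pairs stay higher further upstream.

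The members with the most footprints between their starts had long gaps and held footprints along them. Asphd1/Sez6l2, 981 bp apart and coding for a hydroxylase-like protein and a seizure-related receptor of neurons, had 21 in replicate 1 and 19 in replicate 2. Its strongest peak covered both starts, with a width of 1200 and 1320 bp and a signal of 4.30 and 3.36. Pdcd10/Serpini1, 691 bp apart, had 15 and 17. Nlgn2/Tmem256, with neuroligin 2 of inhibitory synapses, had 14 and 15, Mms19/Ubtd1 12 and 14, and Rnf5/Agpat1 14 and 12. At the other end, Col4a4/Col4a3 was open with no footprint between its starts in either replicate.

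Short sequence motifs were counted as exact matches on either strand in windows of 500 bp to each side of the middle of the gap for the 699 members open in both and of the start for 9495 other open starts. The ETS word CCGGAAG was found in 44.6% of member windows and 29.6% of others, and the NFY words (CCAATCA or CCAATCG or CCAATGA or CCAATGG) in 46.4% and 35.9%. The YY1 word AAGATGGCG was found in 10.6% and 6.14%, the NRF1 word CGCATGCG in 8.30% and 5.50%, and the E2F words (TTTCCCGC or TTTGCCGC or TTTCGCGC or TTTGGCGC) in 15.6% and 10.6%. A TATA box (TATAAA) was less frequent in members, 13.7% against 20.3%, and the SP/KLF word CCCCGCCC was as frequent, 51.9% against 51.5%. For the remaining motifs, the CRE TGACGTCA stood in 6.29% and 5.14%, the CTCF core AGGGGGC in 30.5% and 34.4%, the E-box CACGTG in 22.2% and 21.8%, and ZNF143 ACTACAAT in 2.58% and 1.90%. Words of NEUROD, NFI and AP-1 were no more frequent in members, with the NEUROD E-box CAGATG in 31.5% and 35.7%. The NFI half-site TTGGCA stood in 30% and 30.9% and AP-1 TGACTCA in 7.30% and 8.77%. A member window holds the proximal promoters of 2 genes and a window of another start that of 1. Member starts were richer in CpG, and several of these words contain it. Shares and densities of motifs were not compared within CpG classes, so the part of CpG content was not tested. The SP/KLF and CTCF words can overlap, as 1 match of each does in Fam53a/Gm9903.

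Within member windows, several motifs were concentrated between the starts. NFY matches occurred 2.56 times per kb between the starts and 0.392 outside them, a ratio of 6.54, SP/KLF matches 2.33 and 0.616 (3.78), NRF1 0.223 and 0.0650 (3.42) and CRE 0.138 and 0.0492 (2.81). YY1 went the other way, with 0.0460 between and 0.128 outside (0.359), on 6 and 73 matches. At other starts too, NFY, SP/KLF, NRF1 and CRE matches were denser upstream than downstream, while YY1 matches were denser downstream. In the 150 bp upstream of a start, NFY matches occurred 2.45 times per kb at open member starts and 1.58 at other open starts, ETS 1.46 and 0.830, SP/KLF 2.62 and 2.69, NRF1 0.293 and 0.197 and YY1 0.156 and 0.0442. In the 500 bp downstream the values were 0.355 and 0.281 for NFY, 0.452 and 0.424 for ETS and 0.104 and 0.102 for YY1. The upstream windows of members reach into the partner gene where the gap is shorter than 150 bp, and the windows of 1 pair overlap.

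**Figure D5:**
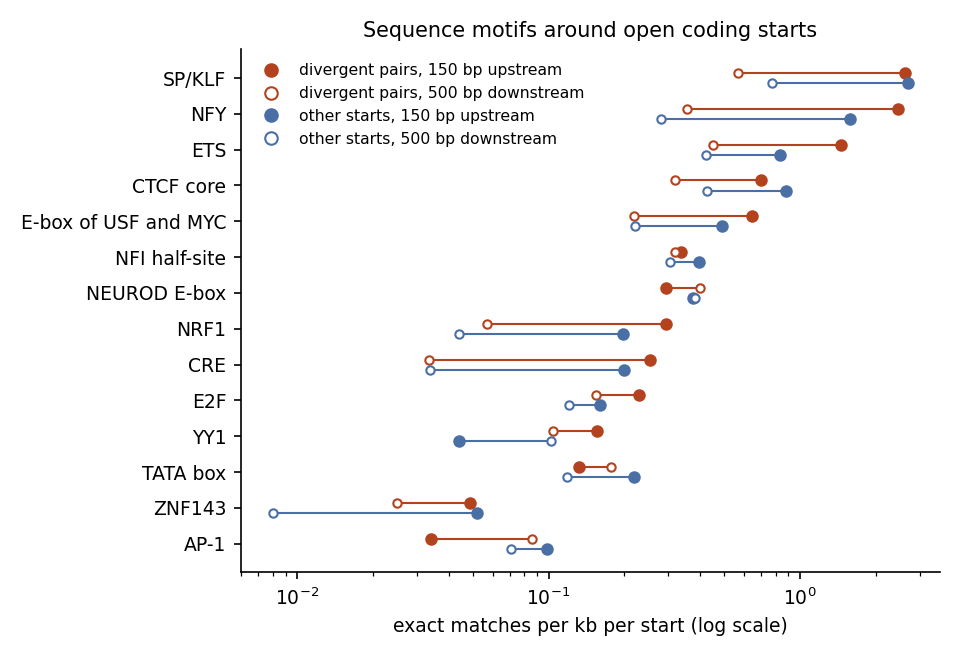
Exact motif matches per kb per open start (log scale) in the 150 bp upstream (filled) and the 500 bp downstream (open), for starts of divergent pairs and other coding starts. NFY and ETS are higher upstream at divergent pairs (2.45 against 1.58 and 1.46 against 0.830 per kb), SP/KLF is nearly equal (2.62 against 2.69), and downstream values of these motifs lie well below those upstream.

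How often a match lay whole inside a footprint depended more on the motif than on the kind of start. The share was 83.7% ± 4.61 of 46 CRE matches in members and 76.6% ± 3.18 in other windows (n = 2). For NRF1 it was 75% ± 3.21 of 66 and 80% ± 0.864, for SP/KLF 64% ± 2.81 of 655 and 53.5% ± 2.48, and for ETS 22.9% ± 1.96 of 432 and 16.7% ± 0.938. NFY matches lay in footprints in 14.2% ± 0.254 of 557 and 15% ± 0.376, and TATA boxes in 0.877% of 114 and 1.85% ± 0.144. DNase I cuts some sequences more readily than others, and whether the footprint calls were corrected for that is not stated in the labels or headers.

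The 46 members without a peak in either replicate were poor in CpG. Their median CpG ratio was 0.336, beside 0.783 for the 699 open in both, and 28 of the 46 but 5 of the 699 were under 0.4. A peak of the longer list lay on 9 of them, and 9 in replicate 1 and 7 in replicate 2 had any base listed at a false discovery rate under 0.05. In 14 of the 46, another annotated start of 1 of the genes lay within 500 bp of a peak, so the outermost start was closed while another was open. Besides Rps2 and Xrcc1, they included Trim28, a corepressor, in Slc27a5/Trim28, where another start had a peak of 7.58 and 4.25 within 500 bp. Ccnt1, the cyclin of the elongation factor P-TEFb, was another, in Ccnt1/4930415O20Rik, with 17.5 and 13.8. In Zfp558/Mbd3l1 another start of Zfp558 had 0.621 and 0.525. Among the rest were pairs of genes known from other tissues, such as Smyd1/Cd8b1 of muscle and T cells, Kirrel2/Nphs1 with nephrin of the kidney and Duox2/Duoxa2 of the thyroid.

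Only 10 closed members had a CpG ratio of 0.6 or more. The highest were Hist1h2bq/Hist1h2ao at 0.975 and Hist1h2ap/Hist1h2br at 0.966. None of their 32-mers (0%) was unique in the reference, so reads from these pairs could have come from other copies, and how the authors treated such reads is not stated in the labels or headers. N4bp3/D930048N14Rik at 0.835 had a peak of the longer list in replicate 1 and 2 footprints there. Hist1h2ba/Hist1h2aa, variant histone genes known from testis, had no peak and no footprint at a ratio of 0.771. Tbc1d16/Ccdc40 at 0.745 had a peak of the longer list in both replicates, with 8 footprints in replicate 1 and 1 in replicate 2. Of the 46, 5 had under 50% unique 32-mers, and of the 699 open in both, 9 did. A gene carried a clone or predicted name in 11 of the 46 and in 78 of all 754, a larger share of the closed members.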

How the data were processed

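DNase-seq of cerebellum gave, per library, 2 peak lists, false discovery rates (FDR) of the cut rate by position, and a footprint list, each made on mm10 from 1 library per the deposited file descriptions. For aligner, callers, versions and read numbers: not given in the sources used here. Deposited peak lists hold the authors' signal, a coverage measure of unstated scale compared within a library only. The deposited FDR table holds q-values (adjusted p-values) under 0.05, and the authors' footprints all carry 0.01, read as their FDR threshold. The stricter list (61776 and 71141 peaks) was used, in which 100% of peaks include a position below an FDR of 0.001, against 64.1% and 63.9% in the longer list (99710 and 114935). Footprints numbered 314116 and 320832.

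Members were found in GENCODE M21 on chromosomes 1 to 19, X and Y. Overlap was 1 bp or more, a member's signal that of its strongest peak, and a peak's centre its middle. Values are given per library, with mean and SD over the 2 libraries, and shares of members with 95% Wilson intervals. With 1 group of 2 libraries there is no test. Named pairs were the 10 with the highest mean signal, the 5 with the most footprints between the starts, textbook pairs, the 2 highest and up to 2 closed pairs of each gene class, and the 5 closed pairs richest in CpG. Sequences printed came from the first 3 of these sets. A few pairs that meet the rule are not reported here. Others were chosen after their values were seen, Brca1/Nbr1, Cbln3/Khnyn and most pairs without a peak among them. The members, lists and motifs were chosen with earlier results of these data known. Alternatives varied the peak list, peak strength, overlap, window, annotation, gap limit, comparison starts, footprints, chromosomes and replicates. Pair finding and overlap were tested on simulated data. Python 3.11.15, numpy 2.4.6, pandas 2.3.3, scipy 1.17.1 and matplotlib 3.10.9 were used.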

Additional observations from a re-analysis of the deposited data

How the results depend on the processing

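With 1 group and no tests, 50 alternatives of 7 results were compared with the SD of the 2 libraries, and 22 stayed within it while 28 moved past it. For members open in both libraries, 6 alternatives were compared with the half-width of a 95% binomial interval, and 5 stayed within it while 1 moved past it. Of the 35 alternatives of the 5 differences and ratios, 0 changed direction, and the other results are shares with no direction. With the longer peak list, members with a peak went from 93.3% to 94.6%, the difference to other starts from 43.9 to 40.4 points (CpG-rich starts from 11.8 to 8.33), the signal ratio from 1.61 to 1.78, and 1 peak over both starts from 61.6% to 61.4%. With peaks at or above the median signal these were 91.2%, 48.0, 17.7, 1.41 and 62.3%, and members open in both went from 92.7% to 90.5%. With a gap of at most 500 bp they were 94.4% with a peak, 45.6 points and 67.0% with 1 peak over both starts, and the ratio of footprint bases between the starts to the flanks went from 2.94 to 3.52. Against other starts without an opposite-strand start upstream, the difference was 45.2 points, the signal ratio 1.65 and the ratio of footprints per kb 1.20 in place of 1.19. A window of 250 bp gave 44.9 points and 1.17. Autosomes alone gave 93.9% with a peak and a signal ratio of 1.58. Footprints inside peaks gave ratios of 1.13 and, between to flanks, 4.22. A peak reaching 50 bp past both starts was found in 38.7%, and coding transcripts alone gave 58.9%. Of the alternatives added after seeing the data, members with at least 80% unique 32-mers gave 94.0%, 1 pair for each locus 61.3% with 1 peak over both starts, and peak bases alone 1.52 for between to flanks.

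Leaving out a replicate leaves the value of the other library, which cannot lie further from the mean of 2 than their SD. The results then ran from 93.1% to 93.5%, 43.3 to 44.6 points, 10.5 to 13.2 points, 1.59 to 1.63, 1.18 to 1.20, 2.75 to 3.12 and 61.6% to 61.7%, in the order members with a peak, difference, CpG-rich difference, signal, footprints per kb, between to flanks and 1 shared peak. Openness in both libraries has no value without one of them. No paired analysis was possible because there is a single group. The number of reads is not given, so a closed member may be open below the depth of these libraries. Agreement of 2 libraries from pools that may share animals does not measure variation between mice.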
